A study of Mus musculus with 2 samples.

Results

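The cells described here are sinusoidal endothelial cells of mouse liver with few transcripts of the chemokines Cxcl9 and Cxcl10, 1580 of 7362 cells of the library WT replicate 1 (21.5%) and of 9703 cells in the series. They were chosen by counts of unique molecular identifiers (UMIs, which stand for single captured RNA molecules). A member had at most 20% mitochondrial UMIs, at least 0.8% of its UMIs in the sum of 9 sinusoidal genes (Stab2, Stab1, Clec4g, Kdr, Ptprb, Oit3, Fcgr2b, Gpr182 and Dnase1l3), and under 0.4% in 7 genes of Kupffer cells, the macrophages of the liver. It also had at most 1 UMI of Rspo3 and at most 2 UMIs of Cxcl9 and Cxcl10 together. The series profiled liver cells of healthy 8-week-old C57BL/6 mice with no treatment other than enzymatic dissociation and a Percoll density gradient, with a droplet method that counts the 3' ends of RNA, in 2 samples of 1 wild-type group (WT). Neither the number of animals nor their sex is given in the labels. In WT replicate 2 there were 0 members: 2 of its 2341 cells passed the sinusoidal and Kupffer limits, and both had more Rspo3 than allowed. All values below thus come from 1 library without a replicate, no difference was tested, and every 95% interval covers counting error only.

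Sinusoidal endothelial cells line the capillaries of the liver lobule. They are perforated by open pores, lack an organised basement membrane, and take up proteins, lipoproteins and waste from the blood through scavenger receptors and a busy endocytic pathway. They also signal to their neighbours: Bmp2 and Bmp6 from these cells drive hepcidin in hepatocytes, and Wnt ligands near the central vein maintain the gene programme of the hepatocytes around it. Cxcl9 and Cxcl10 are ligands of the T cell receptor Cxcr3 and are classical targets of interferon.

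The library of WT replicate 1 held 40645060 UMIs and that of WT replicate 2 held 11867207. The members held 6400361 UMIs, from 510 to 25548 per cell with a median of 3976.5, and a median of 1987 genes. Cells that passed the same limits but had more than 2 UMIs of Cxcl9 and Cxcl10, called chemokine-high below, numbered 1121 and had a median of 5904 UMIs. The Rspo3-high cells, which passed the sinusoidal and Kupffer limits with more than 1 UMI of Rspo3 and any number of chemokine UMIs, numbered 183 with a median of 5877 UMIs, and 2470 cells formed a gate of Kupffer cells (at least 0.8% of UMIs in the 7 Kupffer genes and under 0.2% in the 9 sinusoidal genes) with a median of 4165.5 UMIs. The median mitochondrial share was 4.14% in members and 3.32% in chemokine-high cells. 5 cell barcodes occurred in both libraries, and 2 of them belonged to members. No doublet caller was used, and 15 members had at least 1% of their UMIs in the marker list of another cell type, 10 of them in hepatocyte markers and 3 in erythroid and platelet markers.

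The genes of the rule are given as a description, since they chose the cells. Stab2, a scavenger receptor for hyaluronan, stood at 1039 CPM (UMIs per 1000000 UMIs summed over the cells, interval 1014 to 1064) in members and at 281 CPM in all other cells of the library. Clec4g, a lectin of sinusoidal endothelium, stood at 2810 CPM, Kdr, the main receptor for VEGF-A, at 2990 CPM, Oit3 at 1168 CPM and Dnase1l3, a secreted nuclease, at 3819 CPM. All 9 sinusoidal genes had UMIs in the members, and their sum took a median of 2.14% of a member's UMIs, from 0.803% to 4.26%. Kupffer markers outside the rule (7 genes) summed to 372 CPM in members against 17592 CPM in the Kupffer gate, and T and natural killer markers summed to 5.94 CPM. The 3 central vein markers Wnt9b, Lhx6 and Selp summed to 32.2 CPM in members and 666 CPM in Rspo3-high cells. Markers of vascular endothelium (7 genes) summed to 1147 CPM in members and 713 CPM in all other cells of the library, and those of lymphatic endothelium (4 genes) to 955 against 371 CPM. Single genes can carry such sums. After random thinning of each member to the same depth, a Flt4 UMI was seen in 82.6% and a Prox1 UMI in 0.566%. For Cldn5 and Ly6a the shares were 62.7% and 42.3%, but for Cd34 and Vwf 2.99% and 0.647%. The sums thus do not show that members carried vascular or lymphatic programmes as a whole. The name of sinusoidal endothelium thus rests on the markers that chose the cells.

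The limits cut through a continuum in the chemokines more than in the sinusoidal genes. Only 25 members had a sinusoidal sum of 0.8 to 1.0%, and 31 further cells would have joined at 0.6 to 0.8%. By contrast 991 members had 0 UMIs of Cxcl9 and Cxcl10, 388 had 1 and 201 had 2, while 125 cells just outside had 3. The median depth was 3643 UMIs in members with 0, 4595 in those with 2, and 5036 in the cells with 3. Members had Cxcl9 at 82.0 CPM and Cxcl10 at 41.4 CPM, against 544 and 1513 CPM in chemokine-high cells. Of Rspo3, 44 members had the 1 UMI that was allowed, and 25 cells outside had 2.

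Against all other cells of the library, VEGF and angiopoietin, guidance, endothelial junction and endothelial transcription factor genes were mostly higher in the members. Chemokine, antigen presentation, immediate early and cell cycle genes were mostly lower, and the lists of uptake, coagulation and lipid handling had genes on both sides. A gene was called when its CPM differed by 2-fold or more and both sides together held 50 UMIs or more. Of 14518 genes tested, 10.0% were called higher and 25.3% lower. The 9 rule genes of sinusoidal endothelium themselves differed by 3.28-fold (Ptprb) to 4.05-fold (Fcgr2b), with 1304 cells of the same sinusoidal gate, which failed only the chemokine or Rspo3 limit, on the other side. The same genes were therefore also read against the 4478 cells outside the sinusoidal gate, where 16.7% of 14076 genes were called higher and 27.4% lower. Both other sides include the 597 cells with over 20% mitochondrial UMIs, and 76 of these met every other limit of the rule. With these cells left out of all other cells, 1256 genes were called higher in place of 1456.

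**Figure D1:**
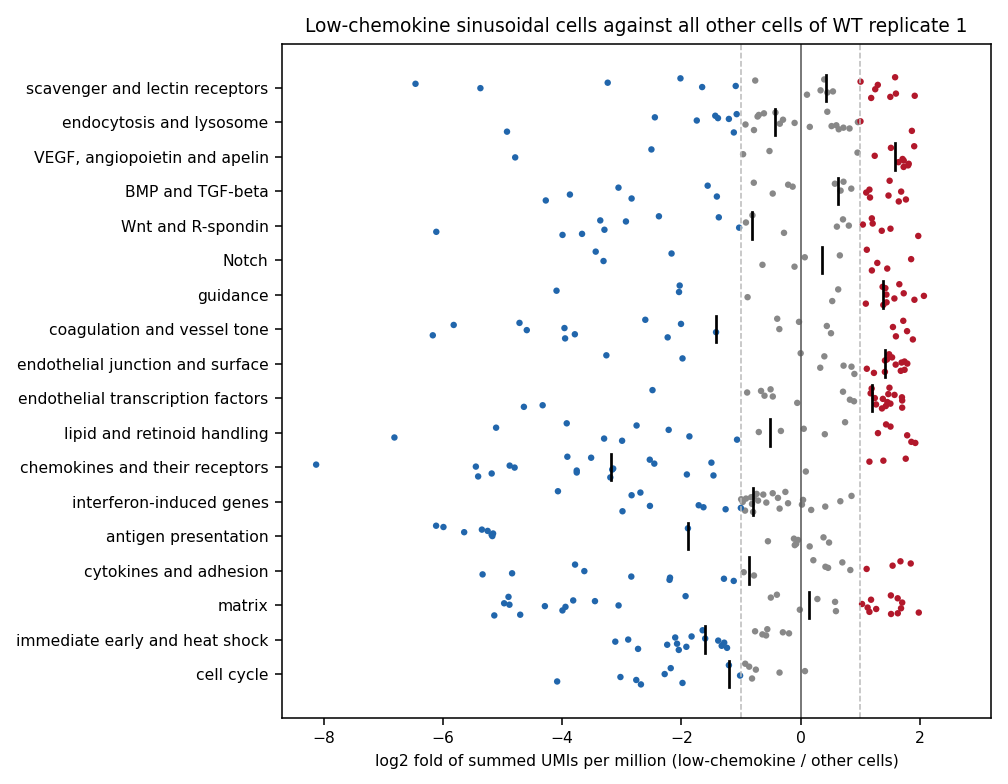
Each point is 1 gene with at least 50 UMIs, placed by its log2 fold of summed CPM between the 1580 low-chemokine cells and all other cells of WT replicate 1, in 18 gene lists; black bars are list medians and dashed lines mark 2-fold. VEGF, guidance, junction and transcription factor genes lie mostly right of the 2-fold line (red), and chemokine, antigen presentation and immediate early genes mostly left of it (blue).

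Receptors and partners of the VEGF and angiopoietin pathways were among the genes of vessel identity. Of 14 such genes with enough UMIs, 9 were called higher than in all other cells and 2 lower, with a list median of 1.58 on the log2 scale against 0.05 over all genes tested. Flt1, which binds VEGF-A and placental growth factor, stood at 1054 CPM (1029 to 1079) in members and 318 CPM (312 to 324) in other cells. Nrp1, a VEGF and semaphorin co-receptor, stood at 1443 against 410 CPM, a 3.52-fold difference (3.43 to 3.61). Tek, the receptor of the angiopoietins, was 3.32-fold higher, and Adgrl4, an adhesion receptor of sprouting endothelium, 3.75-fold. The ligands were split: Angpt2, a ligand of Tek, was among the 9 higher genes (24.8 against 11.6 CPM), whereas Angpt1 had 1 UMI in all members together, and Pgf had 0. With that 0 read as a floor of 3 UMIs, Pgf was 5.67-fold lower than in other cells.

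Junction and surface genes gave 13 of 21 called higher and 2 lower. Egfl7, a secreted endothelial matrix protein, stood at 1169 against 338 CPM, and Ramp2 and Calcrl, which together form the receptor for adrenomedullin, were 3.24- and 3.35-fold higher. Cldn5, a tight junction claudin, was 3.21-fold higher. The 2 genes called lower were Ly6c1 (2.66 against 25.4 CPM) and Cd34 (17.3 against 68.5 CPM), both surface markers of capillaries and larger vessels in other organs.

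Of 27 endothelial transcription factors, 15 were called higher and 3 lower. Gata4, which specifies sinusoidal against continuous endothelium, stood at 232 CPM (220 to 244) against 71.1, and at 12.2-fold the level of the cells outside the gate. Maf, another factor of sinusoidal identity, stood at 3422 against 1269 CPM, with the Kupffer gate at 1036 CPM, so that this gene was not confined to sinusoidal cells. Ets1 and Sox18, general endothelial factors, were 3.26- and 3.25-fold higher. The genes called lower include Gata6 and Prox1. Gata6 had 8 UMIs in all members, and Prox1, the master factor of lymphatic endothelium, had 22, or 3.44 against 19.2 CPM.

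Among secreted signals Bmp2, Bmp6 and Wnt2 were called higher, while several of their relatives had few UMIs in the members. Bmp2 (chr2:133552159-133562885, plus strand, GRCm38) stood at 2347 CPM (2310 to 2385) in members, 749 CPM in all other cells and 84.4 CPM outside the sinusoidal gate, a 27.8-fold difference (26.6 to 29.1). A Bmp2 UMI was seen in 96.3% of members after thinning each cell to 2000 UMIs (95.4% before) and in 5.85% of the Kupffer gate (10.1% before). Thinning left out 343 members and 521 Kupffer gate cells with fewer UMIs. Bmp6 stood at 206 against 60.4 CPM, while Bmp4 had 6 UMIs and Gdf2, the ligand BMP9, had 5. The BMP and TGF-beta list as a whole had 8 of 22 genes called higher, among them the co-receptor Eng at 1710 against 531 CPM and the receptor Bmpr2, and 6 lower.

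Of the Wnt and R-spondin genes, 6 of 21 were called higher and 9 lower. Wnt2 (chr6:17988940-18030585, minus strand), a ligand known from endothelium around the central vein, stood at 365 CPM (350 to 380) against 92.7, and at 15.8 CPM outside the gate. Fzd4, a receptor of Norrin and Wnt ligands, stood at 310 against 109 CPM. Rspo1, Wnt4, Wnt5a and the R-spondin target ligases Rnf43 and Znrf3 were called lower, with 5 UMIs of Rspo1 in all members. Notch receptors and ligands of endothelium were called higher for Notch4 (3.62-fold), Dll4 (2.74-fold) and Notch1 (2.44-fold), with 5 of 12 genes of that list higher and 3 lower.

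Guidance receptors gave 11 of 17 called higher and 3 lower, with a median of 1.39. Plxnc1, a semaphorin receptor, stood at 988 CPM (964 to 1013) against 235 in all other cells, and at 32.2-fold the level outside the gate. Ephb4, the receptor of Efnb2, was 3.76-fold higher and Robo4, an endothelial Roundabout receptor, 3.32-fold. The ligands Slit2 and Slit3 were called lower, Slit3 with 2 UMIs in the members and Slit2 not with the mean of per-cell CPM.

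Uptake receptors were split. Of 20 scavenger and lectin receptors outside the rule, 8 were called higher and 6 lower. Mrc1, the mannose receptor, stood at 1972 CPM (1938 to 2007) against 867, and the Kupffer gate also held it at 1037 CPM. Lyve1, a hyaluronan receptor, stood at 515 against 181 CPM, and Cd209b, a lectin of the DC-SIGN family, at 16.1 against 4.26 CPM. Cd163, the haemoglobin scavenger receptor of macrophages, had 17 UMIs in the members (2.66 against 234 CPM), and Lrp1, the large endocytic receptor for lipoprotein remnants, had 50 (7.81 against 324 CPM). In the endocytosis and lysosome list, 2 of 27 genes were called higher, Ehd3 and Ctsl, and 8 lower. Over all genes tested 10.0% were higher and 25.3% lower, so these counts are no result about the list. Ctsl, a lysosomal protease, lay at the limit (2.01-fold) and was within 2-fold under 4 alternative settings. Ehd3, which handles recycling endosomes, stood at 3876 CPM (3828 to 3924) against 1061, while its caveolar relative Ehd2 had 5 UMIs.

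Clotting factor VIII and the retinoic acid hydroxylase separated the members from the cells outside the gate about as far as Bmp2 did. F8 stood at 962 CPM (938 to 987) against 42.1 outside the gate, and a UMI of it was seen in 82.2% of thinned members against 1.23% of the thinned Kupffer gate (88.9% and 2.27% before thinning). Cyp26b1, the enzyme that inactivates retinoic acid, stood at 1518 against 54.3 CPM outside the gate. Tfpi, the inhibitor of tissue factor, was 3.45-fold above all other cells, but the coagulation and vessel tone list had 5 of 21 genes higher and 11 lower. The lower ones include Vwf (4.37 against 60.4 CPM), the multimeric protein of large vessel endothelium, Edn1 (21 UMIs, 6.09-fold lower), and F13a1 with 1 UMI. In lipid handling, Gpihbp1, which anchors lipoprotein lipase on capillaries, stood at 1774 against 513 CPM, while the lipase gene Lpl itself stood at 3.28 against 370 CPM, 113-fold lower (73.7 to 182).

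Matrix genes lay on both sides, with 12 of 30 called higher and 12 lower. The higher genes include the basement membrane genes Hspg2 (perlecan, 585 against 182 CPM), Col4a1, Col4a2 and Nid1, the membrane protease Mmp14 (177 against 59.8 CPM) and the protease inhibitor Timp3. Another basement membrane gene, the laminin chain Lamb1, was lower, with 5 UMIs in the members. Col13a1, a transmembrane collagen, stood at 266 against 67.3 CPM and at 35.8-fold the level outside the gate. The fibrillar collagens Col1a1 (2.34 against 82.7 CPM) and Col3a1 were lower too. Stellate markers summed to 91.9 CPM in members and 921 CPM in the other cells.

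Most chemokines beyond those of the rule were lower in the members than in all other cells, a side that holds the Kupffer gate. The chemokine-high sinusoidal cells shared much of this. Against them 4 of 15 genes of the list were called lower, 1 higher and 10 within 2-fold, with 1.71% of all genes lower and 1.06% higher. Of 22 chemokines and chemokine receptors, 18 were called lower and 3 higher, with a list median of -3.18. Cxcl2 stood at 14.2 against 605 CPM, Ccl2 at 4.22 against 57.0 CPM, and Ccl24 had 5 UMIs against 7499 in other cells. The 3 genes called higher were the atypical receptors Ackr4 (27.5 against 8.09 CPM), Ackr2 (34.2 against 13.1 CPM) and Ackr1, which bind chemokines without the usual signal. Cxcl16, a membrane-bound chemokine, lay within 2-fold at 272 against 256 CPM.

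Antigen presentation separated by class. Of 17 genes, 0 were called higher and 9 lower, and those 9 include Cd74 (75.2 against 2864 CPM), H2-Aa (36.1 against 1302 CPM) and the costimulatory gene Cd86 (8 UMIs). The class I genes lay within 2-fold: B2m stood at 3160 against 2841 CPM and H2-K1 at 1834 against 1962 CPM. Of 32 interferon-induced genes, 0 were called higher and 9 lower. The lower count is near the share over all genes tested (25.3%) and is no result about the list. The list median was -0.79 on the log2 scale against 0.05 over all genes tested. Of 20 cytokine and adhesion genes 4 were higher, among them the receptor chains Lifr (1266 against 351 CPM) and Il6st (1611 against 552 CPM), through which leukaemia inhibitory factor and interleukin-6 signal, and 9 were lower, with Il6 at 5.16 against 208 CPM and Il18 at 1.09 against 31.4 CPM.

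Immediate early genes, whose transcription starts soon after a stimulus without new protein, were lower in the members than in the rest of the library. Of 21 immediate early and heat shock genes, 15 were called lower and 0 higher. Atf3 stood at 75.6 CPM (69.0 to 82.7) against 653, Fos at 703 against 2898 CPM, and Egr1 at 301 against 1420 CPM. A Fos UMI was seen in 36.0% of thinned members and in 92.1% of the thinned Kupffer gate (41.9% and 90.9% before). Of 15 cell cycle genes 9 were lower, with Mki67, a marker of dividing cells, 6.40-fold lower and Ube2c at 6 UMIs in the members.

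Outside the lists, the 4 genes with the largest fold over all other cells were the globins Hbb-bt, Hba-a2, Hbb-bs and Hba-a1, and they came from few cells. Of 1741 Hbb-bs UMIs in the members, 98.7% lay in 3 cells, and 939 in 1 of them, so the fold of 11.3 describes those cells and not the members at large. Without the 15 mixed members the log2 fold of Hbb-bs was -2.73 in place of a positive value. The 101 UMIs of S100a9, a neutrophil gene, lay in 1 member. The next genes were spread over many cells. Olfr1396, an olfactory receptor gene, stood at 25.9 CPM (22.1 to 30.2) against 4.09, in 139 members with at most 4 UMIs per cell. Pde2a, a phosphodiesterase of cyclic nucleotides, stood at 58.4 against 12.1 CPM in 310 members.

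Against the cells outside the gate, Plet1os led with 84.1 CPM (77.1 to 91.5) against 1.86, a 45.2-fold difference. It is an antisense gene, and whether the authors' counting used strand is not given in the sources used here. Adam23 (chr1:63445891-63596276, plus strand), a membrane protein of the ADAM family, stood at 938 CPM (914 to 962) against 27.3. Pcdh12, a protocadherin of endothelium, stood at 250 against 7.80 CPM, Fam167b at 801 against 25.2 CPM, Ccn4 at 47.3 against 1.35 CPM, and Cnr2, the peripheral cannabinoid receptor, at 88.9 against 2.89 CPM. The lowest genes were markers of other cell types: Krt7, a keratin of bile duct cells, and S100a4 had 1 UMI each in all members, and Pcolce2 had 0, at least 285-fold below the cells outside the gate.

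**Figure D2:**
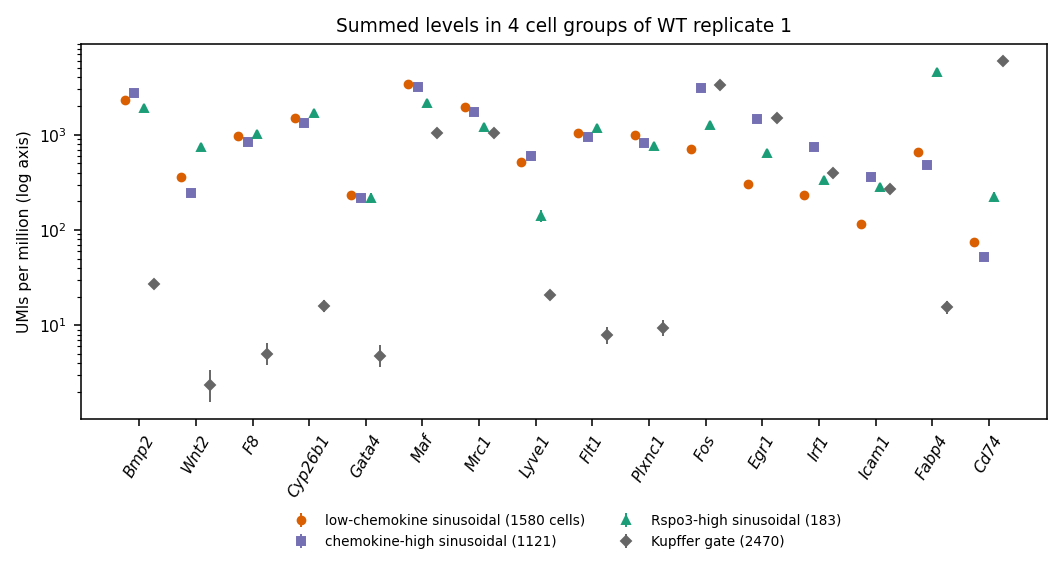
Summed level of 16 genes in CPM on a log axis, with exact 95% Poisson intervals, in 4 cell groups of WT replicate 1. From Bmp2 to Plxnc1 the 3 sinusoidal groups lie above the Kupffer gate, whereas for Fos, Egr1, Irf1 and Icam1 the low-chemokine cells lie below the other groups.

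The nearest cells were the chemokine-high cells, which passed the same sinusoidal, Kupffer and Rspo3 limits. Here 1.06% of 10672 genes were called higher in the members and 1.71% lower. With so few genes called over all, a list without a call is not a result about that list. There were 0 called genes in either direction in scavenger and lectin receptors (18 genes), endocytosis and lysosome (26), VEGF and angiopoietin (12), BMP and TGF-beta (18), guidance (14), junction and surface (21) and antigen presentation (14). Mrc1 stood at 1972 against 1752 CPM, Ehd3 at 3876 against 3635 CPM, Gata4 at 232 against 217 CPM, Maf at 3422 against 3149 CPM and B2m at 3160 against 3145 CPM. Bmp2 was slightly lower in the members, at 2347 against 2716 CPM. The 10 genes with the largest folds on the members' side included the globins of few cells and the hepatocyte genes Fah and Sult2a8. Those on the other side included Myh11, Acta2 and Gsn, known from contractile and stromal cells. For each of them 3 chemokine-high cells held most of the UMIs in that group: 63 of 68 for Myh11, 73 of 76 for Acta2 and 456 of 504 for Gsn. Myc, a growth-related transcription factor with UMIs in 96 chemokine-high cells, stood at 2.34 against 20.6 CPM.

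Immediate early genes made the main difference. Of 21 genes of that list, 14 were called lower in the members and 0 higher, with a list median of -1.61 against 0.05 over all genes. Fos stood at 703 CPM (682 to 724) against 3066 (3027 to 3105), a 4.36-fold lower level (4.23 to 4.50). Egr1 was 4.86-fold lower, Atf3 5.95-fold, Socs3, a brake on cytokine receptors, 4.02-fold, and Zfp36, which destabilises cytokine mRNAs, 3.84-fold. The 7 genes within 2-fold include the heat shock genes Hspa1a (197 against 292 CPM) and Hspb1 (81.4 against 110 CPM). Klf2 and Klf4, flow-responsive endothelial factors, were 2.25- and 2.51-fold lower, and the protease Adamts1 was 2.50-fold lower.

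Interferon and adhesion genes were called lower only in part. Of 30 interferon-induced genes, 4 were called lower, 0 higher and 26 lay within 2-fold. The list median was -0.61 on the log2 scale against 0.05 over all genes, so the list leaned lower, mostly short of 2-fold. Isg15, a ubiquitin-like protein, stood at 9.69 CPM (7.43 to 12.4) against 40.1, Iigp1, an immunity-related GTPase, at 279 against 1152 CPM, Ifit1, which binds foreign RNA, at 21.2 against 72.9 CPM, and the transcription factor Irf1 at 234 against 751 CPM. Gbp2 (49.2 against 60.1 CPM) lay within 2-fold. Of 18 cytokine and adhesion genes, 6 were lower: Tnf (6.11-fold), Sele (4.77-fold), Vcam1 (3.38-fold), Icam1 (3.14-fold), Il1a (2.70-fold) and Il6 (2.09-fold, from 33 UMIs in the members). The leukocyte receptors Vcam1 and Icam1 stood at 130 against 438 CPM and 115 against 359 CPM. Among chemokines outside the rule, Cxcl11 (6.74-fold), Cxcl1 (3.69-fold), Cxcl2 (2.19-fold) and Ccl3 (2.13-fold) were lower, Ackr3 was called higher from 38 against 18 UMIs, and Cxcl16 stood at 272 CPM in both.

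**Figure D3:**
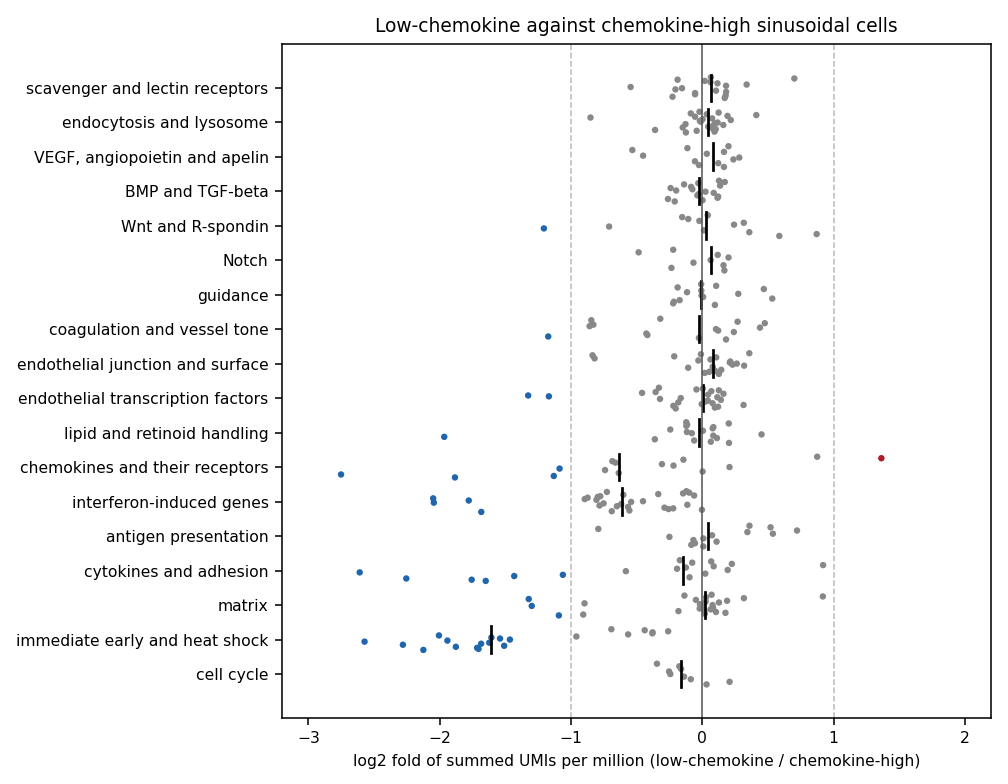
Each point is 1 gene with at least 50 UMIs, placed by its log2 fold of summed CPM between the 1580 low-chemokine and 1121 chemokine-high cells; black bars are list medians and dashed lines mark 2-fold. 14 of 21 immediate early and heat shock genes lie left of the 2-fold line, while scavenger, endocytosis, VEGF and BMP genes stay between the dashed lines.

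The depth of the cells differed with the groups, and so did other markers. The hepatocyte markers summed to 986 CPM in members and 583 CPM in chemokine-high cells, with no marker of the list at 0, and erythroid and platelet markers to 502 against 18.3 CPM. Stellate markers summed to 91.9 against 155 CPM. The part of this RNA and of depth in the single differences was not tested beyond the values that follow. Without the mixed cells the count in the immediate early list was again 14 of 21 lower (0.659% of all genes higher and 1.69% lower). Among cells of 4000 to under 6000 UMIs only, 555 members with a median of 4939 UMIs met 445 chemokine-high cells with a median of 5093, and 0.612% of 8337 genes were called higher and 1.37% lower. In that window 14 of 21 immediate early genes were again lower, with Fos at 887 against 3261 CPM and Atf3 at 77.4 against 419 CPM, and so were 6 of 29 interferon genes and 5 of 15 cytokine and adhesion genes. Il6 was not among them: its 11 UMIs in members and 8 in chemokine-high cells were too few to call. Ccl3 had the opposite direction there, with a log2 fold of 1.71. Vegfc and Cd34, from lists that had 0 calls over all depths, were called lower in the window.

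Levels followed the chemokine count step by step in the same window. From 0 over 1, 2 and 3 to 5 to more than 5 UMIs of Cxcl9 and Cxcl10, Fos stood at 767, 867, 1373, 2159 and 3795 CPM. Egr1 went from 291 to 354, 680, 880 and 1790 CPM. Irf1, the interferon-induced factor, went from 223 to 276, 349, 408 and 879 CPM, and Iigp1 from 218 to 268, 430, 687 and 1372 CPM. The members with 2 UMIs thus lay between those with 0 and the cells just outside the limit. B2m stood between 3069 and 3309 CPM over the 5 bins. Stab2 stood between 933 and 1043 CPM and Clec4g between 2765 and 3009 CPM, but both belong to the sum that chose the cells of every bin. The bins are ranges of a count and not cell types, and a cell with few chemokine UMIs can have missed some by sampling.

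**Figure D4:**
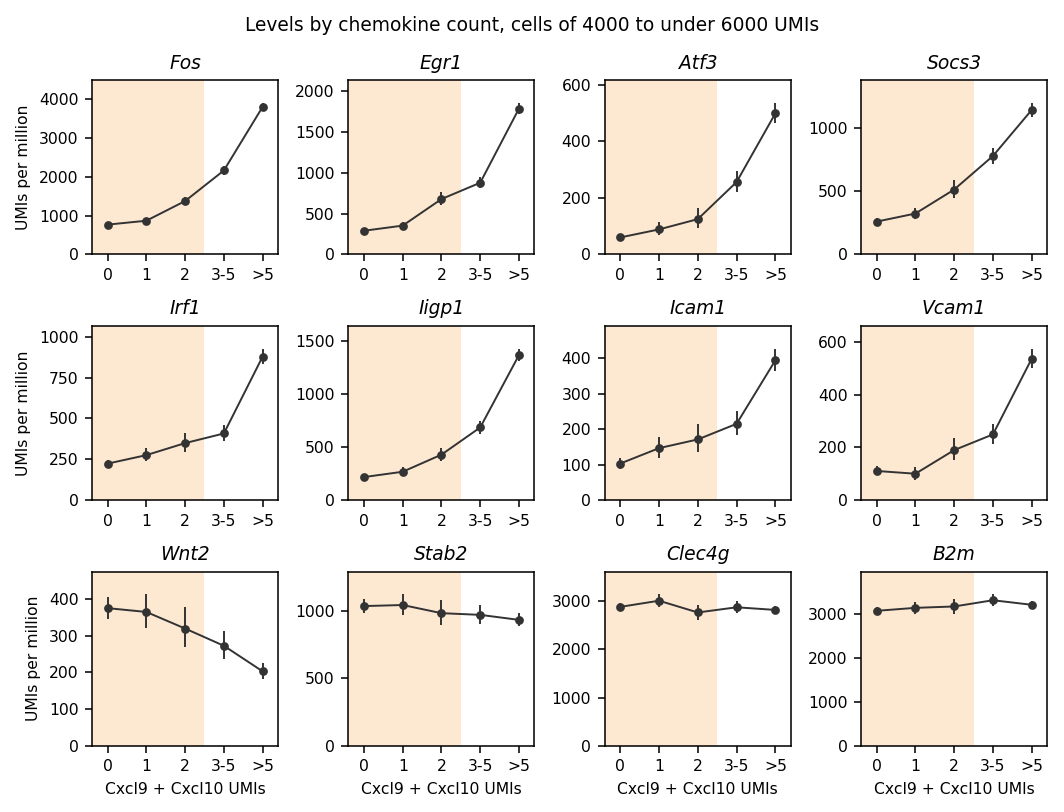
Summed level in CPM with exact 95% Poisson intervals for 12 genes in cells of 4000 to under 6000 UMIs, by the number of Cxcl9 and Cxcl10 UMIs in the cell (328, 139, 88, 146 and 299 cells); the shaded bins are the members. Fos, Egr1, Atf3, Socs3, Irf1, Iigp1, Icam1 and Vcam1 are highest above 5 UMIs, Wnt2 is lowest there, and Stab2, Clec4g and B2m stay near 1 level. Stab2 and Clec4g are genes of the rule that chose the cells.

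A few vessel genes were slightly higher in the members. Wnt2 stood at 365 CPM (350 to 380) in members and 243 (232 to 254) in chemokine-high cells, a 1.50-fold difference that did not reach 2-fold. Kit, the stem cell factor receptor, was 1.62-fold higher, and Cdh13, an anchored cadherin, 1.81-fold. All 3 are known from endothelium near the central vein, and none was called. In the window of like depth the differences were 1.61-, 1.59- and 1.75-fold. The portal genes Efnb2 (151 against 175 CPM) and Dll4 (116 against 137 CPM) were slightly lower in the members. Thbd, thrombomodulin, which is also used as a central gene below, lay in the opposite direction, at 233 against 311 CPM, so the central genes did not differ in 1 direction.

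Promoters of 4 genes are printed to show the motifs that a search found in them, with the motif letters in capitals. Cxcl1, Isg15 and Ifit1 were called lower in the members, and Cxcl10 is a gene of the rule, so that its difference comes from the choice of cells. The other chemokine of the rule, Cxcl9, had 0 matches and is not printed. Each is the stretch of 250 bases before the start of transcription, 5' to 3' in the direction of the gene, from RefSeq on GRCm38.p6. The motifs were the interferon-stimulated response element (ISRE, GAAANNGAAA), the kappa-B motif (kB, GGGANNTTCC), the cyclic AMP response element (CRE, TGACGTCA) and the AP-1 motif (TGANTCA), each on both strands. Cxcl10 lies at chr5:92348890-92349139 on the minus strand, and its capitals mark an ISRE 213, a kB motif 159 and an AP-1 motif 74 bases before the start. Cxcl1 lies at chr5:90890995-90891244 on the plus strand with 2 overlapping kB matches from 71 bases before the start. Isg15 lies at chr4:156200819-156201068 on the minus strand with 3 overlapping ISRE matches from 78 bases before the start. Ifit1 lies at chr19:34640639-34640888 on the plus strand with ISRE matches at 104 and 85 bases, both read on the opposite strand.
Cxcl10: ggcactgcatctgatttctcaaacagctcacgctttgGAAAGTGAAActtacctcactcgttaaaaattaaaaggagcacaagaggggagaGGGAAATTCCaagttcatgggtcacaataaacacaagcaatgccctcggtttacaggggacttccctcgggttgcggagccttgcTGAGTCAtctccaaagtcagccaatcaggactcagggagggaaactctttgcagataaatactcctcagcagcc
Cxcl1: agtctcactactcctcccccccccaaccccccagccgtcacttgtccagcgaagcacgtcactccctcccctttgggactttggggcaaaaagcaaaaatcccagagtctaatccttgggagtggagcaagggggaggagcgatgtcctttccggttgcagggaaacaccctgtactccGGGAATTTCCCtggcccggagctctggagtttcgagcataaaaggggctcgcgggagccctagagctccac
Isg15: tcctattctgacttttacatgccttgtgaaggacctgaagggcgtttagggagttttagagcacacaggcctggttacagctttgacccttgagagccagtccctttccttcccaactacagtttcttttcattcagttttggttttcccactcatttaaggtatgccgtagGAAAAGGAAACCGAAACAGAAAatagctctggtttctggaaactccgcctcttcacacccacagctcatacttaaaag
Ifit1: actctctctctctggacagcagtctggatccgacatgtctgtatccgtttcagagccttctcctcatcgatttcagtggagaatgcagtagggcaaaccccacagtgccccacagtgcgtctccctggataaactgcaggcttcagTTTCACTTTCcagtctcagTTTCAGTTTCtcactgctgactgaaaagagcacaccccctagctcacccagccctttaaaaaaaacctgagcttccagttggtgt
Of all 27025 promoters of the same length, 3.46% hold an ISRE match, 1.36% a kB match, 1.77% a CRE match and 7.82% an AP-1 match. Of the 14 chemokine, interferon and cytokine genes called lower than in chemokine-high cells, 11 had a promoter entry: 2 held an ISRE match (Isg15 and Ifit1), 3 a kB match (Cxcl1, Cxcl2 and Il6) and 3 an AP-1 match (Sele, Il1a and Il6). Of the 14 immediate early genes called lower, 12 had an entry, and 2 held a CRE match (Btg2 and Dusp1) and 0 any of the others. A match is a string of letters in this window and describes no binding.

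Rspo3-high cells, the sinusoidal cells with the Wnt amplifier R-spondin 3, differed from the members in single genes of the vessel wall, several of them known from the central vein. Of 9439 genes tested, 3.44% were called higher in the members and 2.37% lower. Of 13 coagulation and vessel tone genes 5 were lower (Vwf, Edn1, Entpd1, Thbd and Ptgs1) and 0 higher, and of 12 Wnt and R-spondin genes 3 were lower (Wnt9b, Fzd5 and Wnt2) and 0 higher. Vwf stood at 4.37 CPM (2.91 to 6.32) in members against 375, Selp, a leukocyte-rolling receptor stored with it, at 3.59 against 217 CPM, and Edn1, the vasoconstrictor endothelin-1, at 3.28 against 159 CPM. Wnt9b stood at 12.2 CPM against 258, and Wnt2 was 2.02-fold lower in the members, a call that was lost under 3 alternative settings (log2 folds of -0.98, -0.97 and -0.93). Bmp4 and Tgfb2, with 6 and 4 UMIs in the members, were 111- and 97.5-fold lower. Cdh13 was 4.58-fold lower and the fatty acid binding gene Fabp4 6.93-fold, at 664 against 4599 CPM. Cyp1a1, a target of the aryl hydrocarbon receptor, stood at 5.16 against 253 CPM.

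Single uptake receptors differed in the opposite direction. The members held more Msr1, a macrophage scavenger receptor (334 against 40.1 CPM), more Cd36, a fatty acid and thrombospondin receptor (570 against 124 CPM), more Lyve1 (515 against 141 CPM), and more of the portal genes Efnb2 (3.17-fold) and Dll4 (3.49-fold). Of 17 scavenger and lectin receptors 4 were called higher (these 3 and Cd209b) and 1, Lrp1, lower, and of 26 endocytosis and lysosome genes 0 were higher and 1, Ehd4, lower. Class II genes were lower in the members, H2-Ab1 3.34-fold and Cd74 at 75.2 against 224 CPM, and so were 7 of 21 immediate early and heat shock genes in this comparison, whose other side had no limit on the chemokines. With the mean of per-cell CPM, the calls of Lrp1 and Cd74 were lost, and those of Fzd5 and Ehd4 were each lost under 1 other setting. Of 12 chemokines and chemokine receptors, 3 were higher in the members (Ccl3, Ccl4 and Ackr1) and 3 lower (Ackr3, Cxcl12 and Ackr2). The higher Ccl4 and Ccl3 came from few cells, with UMIs in 1.13% and 0.323% of thinned members, and do not describe the members at large. Stab2, which belongs to the rule, stood at 1039 against 592 CPM. The erythroid genes that lead this comparison again rest on 3 members.

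A gate for endothelium outside the sinusoid (sinusoidal sum under 0.2% and at least 3 of 6 general endothelial genes) held 52 cells, and its markers went against the label: hepatocyte markers summed to 17053 CPM, 7 of the 52 cells had at least 1% of their UMIs in them, and mesothelial markers summed to 1202 CPM. Against that gate 23.4% of 9522 genes were called higher in the members and 12.7% lower. A second gate was therefore added after these values were seen, with a sinusoidal sum under 0.6%, at least 0.2% of UMIs in the 6 endothelial genes (Pecam1, Cdh5, Egfl7, Ramp2, Esam and Tie1) and no marker list of another type at 1% or more. It held 152 cells with a median of 6363.5 UMIs, in which vascular endothelial markers summed to 5320 CPM, lymphatic endothelial markers to 1431 CPM and hepatocyte markers to 518 CPM. The 152 cells are called vascular below, though the gate does not exclude lymphatic endothelium. Prox1, the lymphatic factor, was called lower in the members than in these cells.

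Against the vascular cells, 14.2% of 9618 genes were called higher in the members and 7.94% lower. The members were chosen by a high sinusoidal sum, and the vascular cells by a low one and by the 6 endothelial genes. The genes of the gates thus say nothing here. Cdh5, a gene of the vascular gate alone, stood at 939 against 818 CPM. Flt1 stood at 1054 against 830 CPM, Notch1 at 440 against 452 CPM and Lyve1 at 515 against 462 CPM. Of 21 junction and surface genes, 5 of which served to choose the vascular cells only, 0 were called higher and 6 lower. Among the lower were Ly6c1 (2.66 against 475 CPM), Cd34 (17.3 against 203 CPM) and Plvap, the protein of pore diaphragms (140 against 811 CPM). Adam23 stood at 938 CPM (914 to 962) against 14.6, Clec1b, a platelet-type lectin, at 352 against 7.29 CPM, Dpp4, a surface peptidase, at 654 against 18.6 CPM, and Bmp2 at 2347 against 115 CPM. Maf was 8.40-fold and Mrc1 10.2-fold higher in the members, and Gata4 2.49-fold.

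Uptake machinery also divided these cells. Ehd3 stood at 3876 against 365 CPM, while Ehd2 and Cav1, genes of caveolae, stood at 0.781 against 263 CPM and 49.7 against 408 CPM. Of 27 endocytosis and lysosome genes 9 were higher in the members, such as Lamp2, Lgmn and the clathrin heavy chain Cltc, and 6 were lower. Vwf was 215-fold lower (148 to 325). Of 12 chemokines and chemokine receptors, 6 were called higher in the members (Ccl4, Ccl6, Ackr4, Ccl3, Ackr2 and Cxcl16) and 3 lower (Ackr3, Cxcl12 and Cxcl1). Ccl4 and Ccl3 UMIs were seen in only 1.13% and 0.323% of thinned members. Cxcl12 stood at 13.4 against 134 CPM. Immediate early genes were low against this group too, with 18 of 21 called lower and Fos at 703 against 4354 CPM.

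Among themselves the members differed in genes known from the central and portal ends of the lobule. The cells were dissociated, so their position was not measured, and the names central and portal below stand for a score. This score per cell, the mean of 4 central genes (Wnt2, Kit, Cdh13, Thbd) minus the mean of 4 portal genes (Efnb2, Dll4, Ltbp4, Msr1) on a standardised log scale, was split into 3 ranges, and the outer ones, of 526 cells each, were compared. The ranges are parts of a continuous score: 222 members lay within 0.1 of a boundary, and 47 had no UMI of any of the 8 genes, 0 of them in an outer range. Median depth was 4271.5 UMIs in the central and 3890 in the portal range. Of 8109 genes tested without the 8, 0.937% were called on the central side and 1.36% on the portal side. Each landmark was read from a score made without it: Cdh13 was then 9.32-fold, Kit 4.86-fold, Wnt2 4.53-fold and Thbd 1.87-fold higher on the central side, and Msr1 6.11-fold, Efnb2 4.41-fold, Dll4 3.26-fold and Ltbp4 2.19-fold higher on the portal side.

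Genes of the central range included Lhx6 and Wnt9b, both known from the wall of the central vein. Lhx6 (chr2:36081953-36105408, minus strand), a homeobox factor, had 95 UMIs in 68 central cells and 0 in portal cells. With that 0 read as a floor of 3 UMIs, Lhx6 was 29.7-fold higher on the central side. Wnt9b had 63 against 3 UMIs, a 19.7-fold ratio (6.44 to 98.1). Members with high central scores thus carried some RNA of vein genes although Rspo3 was limited to 1 UMI: 33 Rspo3 UMIs fell on the central and 4 on the portal side. Ntf3, a neurotrophin, was 5.91-fold higher, Jup, a junction plakoglobin, 5.81-fold, and Dkk3, a member of the Dickkopf family, 3.35-fold. Fabp4 stood at 1078 CPM (1035 to 1121) against 380, Gas6, the ligand of the TAM receptors, at 600 against 232 CPM, and the cyclooxygenase gene Ptgs1 at 502 against 194 CPM.

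The portal range led with Adgrg6 (chr10:14402583-14545659, minus strand), an adhesion G protein-coupled receptor, with 110 UMIs in 58 cells against 1 UMI, a 117-fold ratio with a wide interval (20.6 to 4674). Vegfc, the growth factor of lymphatic vessels, had 61 UMIs against 1. Ednrb, the endothelin B receptor, stood at 137 against 6.23 CPM, but its 288 portal UMIs lay in 54 of the 526 cells, and 96 of them in 3 cells. Ly6a stood at 814 CPM (776 to 853) against 188, Ntn4, a netrin, at 715 against 162 CPM, Efnb1 at 480 against 121 CPM and Cd36 at 831 against 303 CPM. Hes1, a Notch target, and its ligand gene Jag1 were 2.20- and 2.27-fold higher, and Angpt2, a ligand of Tek, 3.39-fold. Of the lists, 3 of 12 guidance genes (Ntn4, Efnb1 and Efna1) and 3 of 26 interferon genes (Iigp1, Nlrc5 and Gbp5) were called higher on this side. These calls are close to the limit: Jag1, Hes1, Efna1, Iigp1, Nlrc5 and Gbp5 each lay within 2-fold under at least 1 alternative setting.

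Other genes of sinusoidal endothelium lay within 2-fold along the score. Cyp26b1 stood at 1615 against 1561 CPM, Ehd3 at 3889 against 3841 CPM and Lyve1 at 460 against 449 CPM. Clec4g, a gene of the rule that chose the members, stood at 2787 against 2711 CPM. Bmp2 leaned to the central side by 1.31-fold (1.26 to 1.36). None of 24 endothelial transcription factors, 17 BMP and TGF-beta genes, 13 antigen presentation genes or 21 immediate early genes reached 2-fold, which at these shares of called genes is no result about the lists. Fos stood at 544 against 831 CPM. The mean number of Cxcl9 and Cxcl10 UMIs per cell was 0.464 centrally and 0.510 portally.

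**Figure D5:**
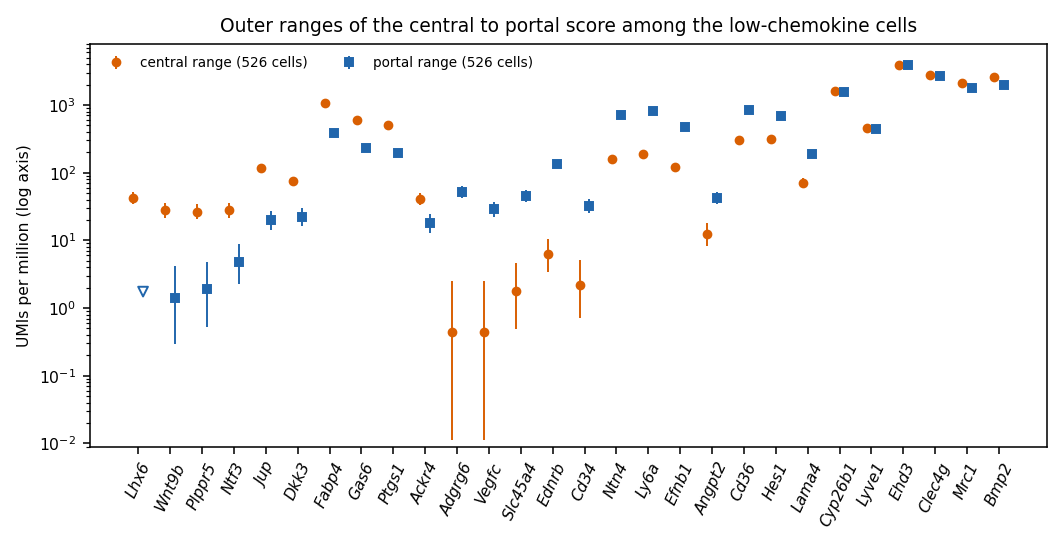
Summed level in CPM on a log axis, with exact 95% Poisson intervals, in the central and portal ranges (526 cells each) of the low-chemokine cells; the open triangle marks the upper limit for Lhx6, which had 0 UMIs in the portal range. Genes from Lhx6 to Ackr4 are higher in the central range, those from Adgrg6 to Lama4 in the portal range, and the last 6 lie within 2-fold. Clec4g, among these 6, is a gene of the rule.

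Central and portal genes overlapped within single cells. Among members thinned to 2000 UMIs, 39.4% of 1237 had a Kit UMI (36.6 to 42.2), 45.3% a Wnt2 UMI and 37.3% a UMI of Efnb2 or Dll4, against 0.513% for Wnt2 in the thinned Kupffer gate. A Wnt2 UMI was seen in 57.1% of the Kit-positive cells (52.6 to 61.5) and in 37.6% of the Kit-negative ones (34.1 to 41.2). Efnb2 or Dll4 was seen in 27.7% of the Kit-positive cells (23.8 to 31.9) and 43.5% of the negative ones (39.9 to 47.1). Kit and the portal pair were found together in 135 cells, and 220 cells (17.8%) had none of the 4 genes at this depth.

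The ratio of variance to mean among thinned members was close to that of counting alone for most genes. At low means it stays close to that value even where cells differ, so it does not show that most genes were uniform. Over 5865 genes with a mean of at least 0.05 UMI, the median ratio of variance to mean was 1.04, and 57 genes had a ratio of at least 2. The globins led, from the same few cells, with Hbb-bs at 153. Among genes found in many members, Fos had a ratio of 6.08, Zfp36 4.84, Junb 4.73 and Egr1 4.58. Ednrb had 6.20 with UMIs in 4.77% of members, Fabp4 3.45, Cyp26b1 3.27, Ly6a 2.96, Klf2 2.83, Iigp1 2.82 and Lyve1 2.72. Of the other scavenger and lectin receptors, Msr1 had 1.96, Cd36 1.72 and Mrc1 1.35. Lower ratios were those of Clec1b (1.19), Fcgrt (1.18), Cd93 (1.09) and Scarf1 (1.02), among others. Flt1 had 1.32, F8 1.31 and Gata4 1.11. The ratio also depends on the mean, which was 0.458 UMI for Gata4 and 4.06 for Mrc1, so it does not rank genes by their variation.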

How the data were processed

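Single liver cells of 2 wild-type samples were profiled by droplet 3' RNA sequencing. The deposited values are whole UMI counts per gene and cell, 22508 genes in 9703 cells, with both samples in 1 table. Per the submitters' processing notes, Cell Ranger 2.1.1, Seurat 3.1 and the build GRCm38 were used. The roles of these tools, the filter on cells before deposit and the strand setting of the counting are not given in the sources used here. The ending 1 or 2 of each cell barcode was read as the replicate number of its sample, which no label states outright.

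From these counts, UMIs were summed over the cells of a group and divided by the group's total (CPM). Intervals are exact Poisson for CPM, exact (Clopper-Pearson) binomial for shares and conditional binomial for ratios, at 95%; a count of 0 was read against a floor of 3 UMIs. UMIs of 1 library are not independent of its handling, so intervals and floors cover counting error only. With members in 1 library, groups were compared by 2-fold at 50 UMIs or more, with no test. Shares and the spread among members were read after random thinning to 2000 UMIs per cell, and shallower cells were left out there. The central and portal score used log values of CPM-like levels per 10000 UMIs. No doublet caller was run; settings without the deepest 5% of members and without mixed cells stand in its place.

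The genes named come from the gene and marker lists, the 10 largest folds per side of each comparison (without mitochondrial, ribosomal protein and model genes), the 15 genes of largest spread, and the genes of the rule. Members and lists were chosen with earlier results of these data known. The comparisons with cells outside the gate and with the added vascular gate, the genes leading them (among them Ccn4, Cnr2, Dpp4, Fam167b and Pcdh12), the setting without mixed cells and the window of like depth were chosen after seeing the data. The 4 promoters printed, and Lpl and other single genes outside the largest folds, were also picked after their values were seen.

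Coordinates are those of GENCODE vM21 (GRCm38), in which 22490 of 22508 symbols matched. Promoters are RefSeq's on GRCm38.p6. Python 3.11.15 was used with numpy 2.4.6, scipy 1.17.1, pandas 2.3.3 and matplotlib 3.10.9, and edgeR 4.0.16 in R 4.3.3 for its TMM scaling factors only. The calculations were tested on simulated data. Some results are not reported here.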

Additional observations from a re-analysis of the deposited data

How the results depend on the processing

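No paired analysis was possible because the series has 1 group and the members all lie in WT replicate 1, so no sample could be left out either. The cause of each move below was not tested, except that a UMI minimum changes how many genes are tested and the stricter settings use fewer cells. Against all other cells, 1456 genes were higher and 3671 lower; the higher count was 2344 with all sinusoidal gate cells left out of the other side, and the lower count 2205 at 200 UMIs or more. Against chemokine-high cells, 113 genes were higher and 183 lower. The higher count was 297 at 20 UMIs, 25 at 200 UMIs, 197 with the mean of per-cell CPM, 65 at a sinusoidal sum of 1.6% or more, 63 after thinning, 70 without mixed cells and 51 in the window of 4000 to under 6000 UMIs. The lower count was 321 at 20 UMIs, 97 at 200 UMIs and 114 in that window. Against Rspo3-high cells, 325 were higher (627 at 20 UMIs, 80 at 200 UMIs, 539 between 0 and over 5 UMIs of Rspo3) and 224 lower (440 at 20 UMIs, 83 at 200 UMIs). Against the first vascular gate, 2231 were higher (1436 at 200 UMIs, 1366 with the added gate) and 1209 lower (2000 at 20 UMIs, 372 at 200 UMIs, 764 with the added gate). Along the score, 76 were central (186 at 20 UMIs, 32 at 200 UMIs, 48 after thinning) and 110 portal (276 at 20 UMIs, 26 at 200 UMIs, 52 after thinning).

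The globins turned direction against all other cells. Without the deepest 5% of members their log2 folds were -1.19 (Hbb-bt), -0.86 (Hba-a2), -0.63 (Hbb-bs) and -0.27 (Hba-a1), and without mixed cells -1.95, -2.10, -2.73 and -2.03 for Hbb-bt, Hba-a2, Hbb-bs and Hba-a1. In the window of like depth, 4 genes of the comparison with chemokine-high cells turned: Acta2 to 0.30, Gsn to 0.032, Il6 to 0.17 and Ccl3 to 1.71. With the added vascular gate Notch1 turned to -0.037. Of the genes named and called against all other cells, 102 genes under 8 settings gave 816 values, of which 802 were still called. The same holds for 236 of 260 values against chemokine-high cells, 160 of 168 against Rspo3-high cells, 139 of 147 against the first vascular gate and 256 of 290 along the score. Most of the others fell within 2-fold or under the UMI minimum. TMM scaling shifted all log2 folds by -0.14 against all other cells and by 0.15 against the first vascular gate, and by under 0.1 elsewhere. A gene with fewer than 50 UMIs over both sides was not compared, which limits the reading most for the 183 Rspo3-high and 152 vascular cells.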
